A study of Caenorhabditis elegans with 2 samples.

Results

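The genes described here were the pre-mRNA splicing factor genes of C. elegans whose names begin with snr-, lsm-, uaf-, sfa-, sftb-, prp-, rsp-, hrpa-, hrpu- or hrpr-. These 10 prefixes gave 46 of the 19973 protein-coding genes outside the mitochondrion in the Ensembl release 115 annotation of WBcel235, the assembly also called ce11. Chromatin immunoprecipitation followed by sequencing (ChIP-seq) had mapped the protein of Y75B8A.6, a gene that goes by its sequence name. The animals, of strain RW12275, carried the insertion allele st12275, made with CRISPR, which adds a TY1, EGFP and 3xFLAG tag to Y75B8A.6 itself, and the precipitation used an antibody against GFP. Both libraries came from whole L4 larvae at 48 h, grown from L1 larvae that had been starved after bleaching, and they were the 2 biological replicates of 1 group. Signal from whole larvae is pooled over all tissues and cells, and no library of untagged animals was analysed here.

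Introns are removed by the spliceosome, which is built from small nuclear RNAs (snRNAs) and proteins. Sm proteins form a ring on the U1, U2, U4 and U5 snRNAs, the LSm2 to LSm8 ring binds U6 snRNA, and U2AF, SF1 and SF3b recognise the 3′ end of the intron and the branch site. PRP factors assemble, activate and proofread the complex, and SR and hnRNP proteins bind exons and introns and shift the choice of splice sites. In C. elegans the spliced leader RNAs, which carry an Sm ring too, are joined to the 5′ ends of many messages by the same machinery.

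The promoter window of a gene reached 1000 bp upstream and 300 bp downstream from each annotated start of a protein-coding transcript. A gene is called bound where the summit of a peak lay in that window, which says nothing on whether its expression depends on Y75B8A.6. The main list, the larger thresholded peak list of the series, held summits in the windows of 5 of the 46 splicing factor genes (10.9%), snr-4, lsm-6, prp-8, prp-19 and hrpu-1, against 2.32% of all protein-coding genes. The smaller, conservative list of the same libraries held snr-4, prp-19, hrpu-1 and hrpa-2, 4 of 46 (8.70%), against 1.97%. The assembly sequences around the summits at 5 of these 6 genes are printed below. At the stronger snr-4 summit the stretch reached into an snRNA gene, and the second snr-4 summit was intergenic. The summits were intergenic at prp-8, prp-19 and hrpa-2 too, and in protein-coding DNA of the upstream neighbour at hrpu-1. Each sequence is 101 bp of ce11 centred on the summit and read 5′ to 3′ on the strand of the splicing factor gene. Capitals mark TATAAA at snr-4 and, at prp-8 and prp-19, the longest word that any pair of these windows had in common.
snr-4, chrV:11980038-11980138, minus strand: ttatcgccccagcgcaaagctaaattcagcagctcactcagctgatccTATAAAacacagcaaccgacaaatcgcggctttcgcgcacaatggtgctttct
snr-4, second summit, chrV:11980381-11980481, minus strand: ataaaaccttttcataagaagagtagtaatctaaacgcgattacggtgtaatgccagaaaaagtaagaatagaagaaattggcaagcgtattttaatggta
prp-8, chrIII:8163990-8164090, plus strand: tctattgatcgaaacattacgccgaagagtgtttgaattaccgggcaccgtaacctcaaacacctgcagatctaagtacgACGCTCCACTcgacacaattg
prp-19, chrIII:5172615-5172715, minus strand: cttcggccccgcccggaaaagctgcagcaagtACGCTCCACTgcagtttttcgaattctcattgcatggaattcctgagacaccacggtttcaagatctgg
hrpu-1, chrIV:15038918-15039018, plus strand: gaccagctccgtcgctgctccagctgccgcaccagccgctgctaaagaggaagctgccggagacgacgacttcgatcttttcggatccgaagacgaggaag
hrpa-2, chrX:5216262-5216362, plus strand: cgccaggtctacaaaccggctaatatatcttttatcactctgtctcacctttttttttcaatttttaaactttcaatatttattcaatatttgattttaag

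The windows of prp-8 and prp-19 had the 10-base word ACGCTCCACT in common, on the same strand relative to both genes. Among the 15 pairs of the 6 windows no other pair had more than 8 bases in common. The word was taken from these 2 windows, so its presence in them follows from that choice. On either strand it stood in 2 of the 933 summit windows of the main list (0.214%), which were these same windows. It was also in 7 of 19973 promoters (0.0350%), which at 301 bp are longer, none of them a splicing factor gene's. In the genome it occurred 66 times. How often 15 pairs of such windows have 10 bases in common by chance was not tested. The GC content of the windows ran from 27.7% at hrpa-2 and 31.7% at the second snr-4 summit, over 46.5% at prp-8, 49.5% at the first snr-4 summit and 52.5% at prp-19, to 61.4% at hrpu-1, beside a median of 47.5% over the 933 main-list summits. The windows thus spanned AT-rich and GC-rich DNA, with no common composition. Further letters searched on both strands were the GAGA repeat GAGAG, the TATA box letters TATAAA, the acceptor site letters TTTCAG, the tRNA gene B box core GTTCGA and the CpG-rich run CGCGC. The first snr-4 window held the TATA box letters and the CpG-rich run, and no other window printed held any of the 5.

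The Sm core group held 7 genes, snr-1 to snr-7. Its bound member was snr-4, which encodes SmD2, a protein of the ring. The stronger of its main-list peaks stood at V 11979960 to 11980215, had a signal of 71.6, the highest among all splicing factor genes, and ranked 297th of 933 in the main list. Signal is a number that the deposited lists give each peak, on a scale that is not stated, and is compared here only within a list. The summit lay 365 bp upstream of the snr-4 start, inside the annotated noncoding gene C52E4.14. It was 30 bp upstream of the start of the snRNA gene C52E4.8, which is read in the opposite direction. No other protein-coding gene had the summit in its window.

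The ranked peak at this place had a signal of 23.6 and a score of 141 in replicate 1, and of 43.4 and 997 in replicate 2. The score follows the irreproducible discovery rate (IDR), which measures whether a peak keeps its rank between paired lists, and the lowest score was 830 in each of the 4 thresholded lists. The peak therefore passed the threshold in the list of replicate 2 alone and not in that of replicate 1. A weaker main-list peak at V 11980303 to 11980558, with a signal of 46 and a score of 941, had its summit 708 bp upstream of snr-4 and 313 bp from the start of C52E4.8. It ranked 857th of 933, was in no other thresholded list, and the peaks that overlapped it had signals of 21.6 in replicate 1, with a summit 135 bp away, and 22.9 in replicate 2, with a summit 46 bp away.

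The snRNA gene is shown in full because it, and not snr-4, had the nearest start to the strongest of these summits. Its first 21 bases, reversed and complemented, open the first snr-4 sequence printed above. C52E4.8 (WBGene00014291, named from RefSeq coordinates, since Ensembl gives it the name of its copy) and T11F9.15 (WBGene00014517) had identical sequences of 144 bases, and the annotation used here names no class of snRNA for them. Capitals mark ATTTTTG at positions 118 to 124 from the 5′ end, letters like those of the site that Sm rings bind.
C52E4.8, chrV:11980118-11980261, plus strand: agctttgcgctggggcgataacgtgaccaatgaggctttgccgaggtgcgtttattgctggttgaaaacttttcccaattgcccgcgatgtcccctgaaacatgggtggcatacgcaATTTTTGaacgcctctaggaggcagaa

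The copy T11F9.15, at V 11478148 to 11478291, had its nearest main-list summit 55009 bp away. How reads that match both copies were aligned is not stated. Of the 100 bases upstream of each gene, 37 were equal without gaps. ATTTTTG stood in 72 of the 129 annotated snRNA genes, and 14 of the 129 had a main-list summit within 500 bp of their start. Among all summits in promoter windows, 2 of the 6 in windows of splicing factor genes (33.3%), both at snr-4, lay within 500 bp of the start of a tRNA, snoRNA, snRNA, miRNA, piRNA or rRNA gene, against 80 of the 385 in windows of any protein-coding gene (20.8%). The part of the snRNA gene in the snr-4 peak was not tested.

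The other 6 Sm genes had no thresholded peak. In the ranked list behind the main list, which holds 103934 peaks before any threshold, their highest signals ran from 16.2 for snr-5 (SmF) to 24.1 for snr-3 (SmD1). That of snr-3 was a summit 31 bp downstream of its start, and it also lay in the window of the divergent gene rsp-5. The value of snr-4 thus stood far above the rest of the group, whose other members lay close together.

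The LSm group held lsm-1, lsm-3, lsm-4, lsm-5, lsm-6, lsm-7 and lsm-8. LSm1 marks the cytoplasmic ring that takes part in mRNA decay and LSm8 the nuclear ring on U6 snRNA, while the other members are common to both rings. The bound gene, lsm-6, was the weakest case of the 5. Its peak at I 1701267 to 1701522 had a score of 864 but a signal of 2.69, rank 932 of 933. The summit lay in a coding exon of lsm-6, 34 bp downstream of the start, and also in the window of Y71G12B.13. The same row of the list pairs peaks with signals of 28.4 and 23.2. The replicate 2 peak that overlapped it had a signal of 10.4, a score of 452 and a summit 77 bp away, while the overlapping peak of replicate 1, with a signal of 27.4 and a score of 45, had its summit 207 bp away. A second main-list peak, with a signal of 30.8 and a score of 870, had its summit 344 bp downstream of the start, just outside the window. The highest ranked signal in the window, 29.6, belonged to another summit, at -168 bp from the start, with a score of 342. Of the 933 main-list peaks, 13 had a signal under 10, and without them lsm-6 was not bound.

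The remaining LSm genes had no thresholded peak but ranked high. The highest was lsm-3, with a signal of 42.6 and a score of 536 at IV 13388488 to 13388743, in an intron of its own longer transcript and 360 bp upstream of the start used. The gene lsm-8 had 35.8 with a score of 639, in the 3′ UTR of sqd-1, which ends 103 bp upstream. In the ranked list of both libraries, all 7 LSm genes stood above the median of the protein-coding genes. Their group median was at the 81.4th percentile, where genes without a ranked peak in the window were given the lowest rank. In replicate 2 alone, lsm-5 had no ranked peak.

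No gene of the U2AF, SF1 and SF3b group was bound, in any thresholded list. The 2 subunits of U2AF, which binds the 3′ splice site, had the highest values. The gene uaf-2, the small subunit, had a signal of 45.7 and a score of 369 at IV 17119154 to 17119409, 515 bp upstream of its start but nearer (400 bp) to that of itsn-1. The gene uaf-1, the large subunit, had a signal of 44.8 and a score of 645 at III 1076497 to 1076752, 70 bp upstream. Replicate 1 had a peak of 24.6 at the uaf-1 site and replicate 2 none that overlapped it. Among the others, sftb-1 (SF3B1) had 30.3, sfa-1 (SF1, the branch site binding protein) 21.3, sftb-6 16.6 and sftb-2 (SF3B2) 13.3.

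The PRP group, with 13 genes, held the widest range. The gene prp-19, which encodes the ubiquitin ligase of the complex that activates the spliceosome, had a peak at III 5172537 to 5172792 with a signal of 67.9 and a score of 1000, rank 349 of 933. Its summit was intergenic, 620 bp upstream of prp-19 but 55 bp upstream of K10D2.5, which is read in the opposite direction, and it also fell in the window of emb-1, a gene of the anaphase-promoting complex. Given only to the gene with the nearest start, the summit belonged to K10D2.5. The peak had a signal of 47.4 (score 1000) in replicate 1 and of 29.8 (score 714) in replicate 2, and was in the main, the conservative and the replicate 1 lists.

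The gene prp-8 encodes the largest protein of the U5 particle, which sits at the catalytic centre of the spliceosome. Its peak at III 8163912 to 8164167 had a signal of 65.6, a score of 980 and rank 386 of 933. The summit was intergenic and 333 bp upstream of prp-8, the nearest start, in a gap of 989 bp that separates prp-8 from the divergent gene bath-42, whose window it shared. Replicate 1 had a signal of 39.3 and a score of 916 here, and replicate 2 had 16.1 and 70. The conservative ranked list gave the same interval a score of 566, below its threshold, so prp-8 was bound in the main and replicate 1 lists only.

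The next PRP genes were prp-6 and prp-38, of the tri-snRNP, with highest signals of 35.0 and 34.6. The lowest values of all 46 genes were in this group as well. The windows of prp-18, a factor of the second step of splicing, and prp-21, a subunit of SF3a, held no ranked peak of both libraries, and prp-31, of the U4/U6 particle, had a signal of 11.0 at the 28.9th percentile. In the single libraries, prp-18 and prp-21 had signals of 5.67 and 5.50 in replicate 1 and none in replicate 2, and prp-31 had none in either.

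None of the 8 SR protein genes was bound in a thresholded list. The genes rsp-1 and rsp-2, which are read in opposite directions, had their highest signal in 1 common peak at II 11453118 to 11453373, with a signal of 44.3 and a score of 523. Its summit lay 728 bp upstream of the nearest start of a protein-coding rsp-1 transcript (a noncoding one starts nearer) and 291 bp upstream of the rsp-2 start. Replicate 2 had a signal of 25.6 there and replicate 1 no overlapping peak. The gene rsp-6 (SRSF3 in mammals) followed with 40.18 and a score of 388, rsp-3 (SRSF1) had 29.3, and the lowest was rsp-7 with 22.9. In the ranked list of both libraries, all 8 stood above the median of the protein-coding genes, with a group median at the 83.1st percentile. In replicate 1 alone, rsp-3 and rsp-7 stood at the 43.6th and 46.1st percentiles, and rsp-2 and rsp-5 had no ranked peak. In replicate 2 alone, rsp-4 had none. These were also not 8 independent values, since rsp-1 and rsp-2 had a peak in common and rsp-5 had its peak in common with snr-3.

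Of the 5 hnRNP genes, hrpu-1, of the hnRNP U family, was bound in the main list. Its peak at IV 15038840 to 15039095 had a signal of 55.2 and a score of 976, rank 648 of 933, with a signal of 31.6 (score 131) in replicate 1 and of 23.3 (score 336) in replicate 2. It passed neither replicate's own threshold but was in both thresholded lists made from the 2 libraries together. The summit lay 648 bp upstream of the nearest hrpu-1 start, in a coding exon of eef-1B.2, a gene of translation elongation factor 1B that is read in the same direction and ends 64 bp before hrpu-1. A second ranked peak, with a signal of 47.7 and a score of 577, had its summit 22 bp downstream of an hrpu-1 start, in the 5′ UTR, and was in no thresholded list.

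The gene hrpa-2, of the hnRNP A family, was bound in the conservative list only, at X 5216184 to 5216439, with a signal of 45.8 and rank 707 of 798. The same interval had a score of 1000 in the conservative list and of 562 in the ranked list behind the main one. Its summit was 51 bp upstream of hrpa-2, in the gap of 130 bp after H28G03.2. The peaks that overlapped it had signals of 40.3 (score 171) in replicate 1 and 25.7 (score 451) in replicate 2. Their summits were 91 bp and 63 bp away, at -142 bp and 12 bp from the hrpa-2 start, and so outside that gap. The gene hrpr-1, of the hnRNP R family, had no thresholded summit in its window, but a main-list summit with a signal of 57.5 stood 1011 bp upstream of its nearest start and 43 bp downstream of the start of the tRNA gene F58D5.t1. That summit lay just beyond the 1000 bp limit of the window.

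**Figure D1:**
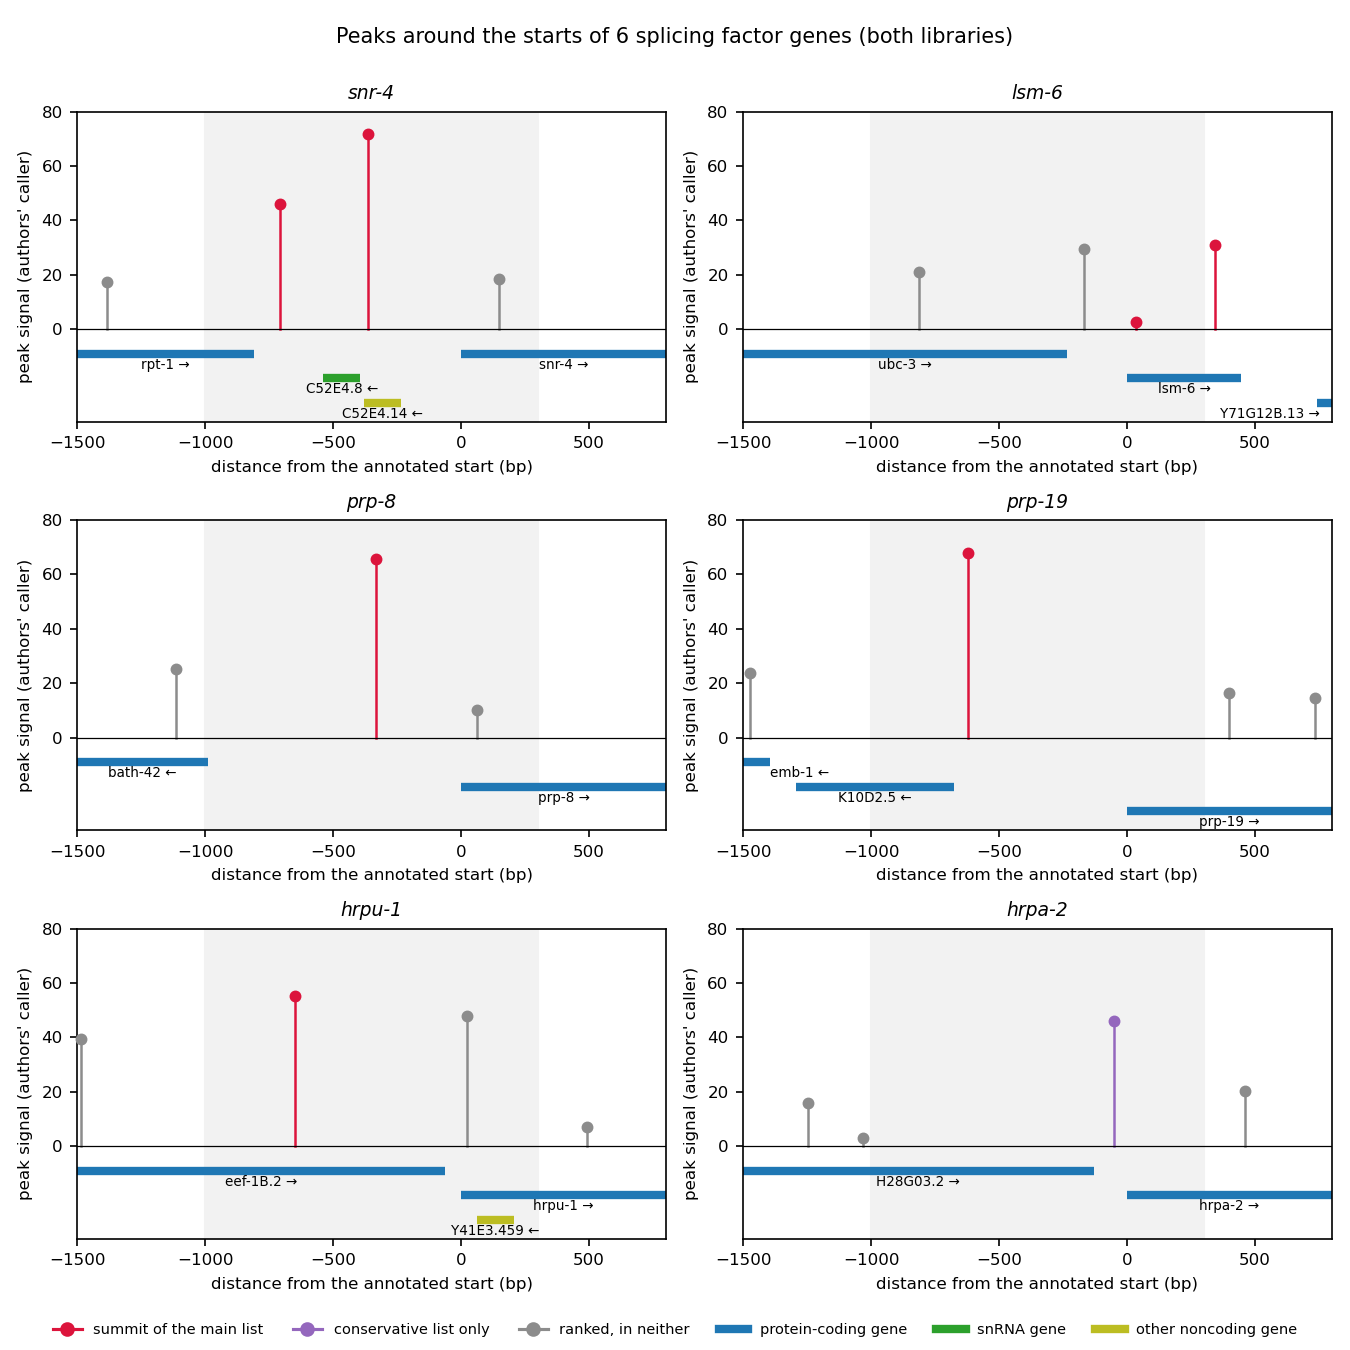
Peaks of the ranked lists of both libraries around the starts of the 5 bound genes and hrpa-2. The x axis is the distance from the annotated start in bp, with the promoter window shaded, and the y axis the signal of the authors' caller; bars below 0 are genes, with arrows for their direction relative to the splicing factor gene. The snr-4 panel has its highest peak (71.6) beside the snRNA gene C52E4.8, the lsm-6 panel a main-list peak of 2.69 beside stronger ones, and the hrpu-1 panel its main-list peak in eef-1B.2.

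The share of bound splicing factor genes in the main list, 10.9%, had an exact 95% interval of 3.62% to 23.6%, and the 2.32% of all protein-coding genes stood for 463 of 19973. In the conservative list the 8.70% had an interval of 2.42% to 20.8%, and the 1.97% stood for 393 genes. The list of replicate 1 alone had 2 of 46 (4.35%, 0.531% to 14.8%), against 0.886%, and that of replicate 2 alone had 1 of 46 (2.17%, 0.0550% to 11.5%), against 0.946%. In the main and conservative lists the share of all protein-coding genes was below the interval, and in both single-library lists it was inside it. Intervals cover counting error only and treat the genes as independent, and the 2 libraries of 1 group allow no test between conditions, so no p-value is given.

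The threshold decided how many genes were called. With ranked peaks of a score of at least 540, hrpa-2, lsm-8 and uaf-1 joined the 5 bound genes, which made 8 of 46 (17.4%, 7.82% to 31.4%), against 4.99% of protein-coding genes. Just under that limit were lsm-3 with a score of 536 and the rsp-1 and rsp-2 peak with 523. With each summit given to the nearest protein-coding start only, prp-19 dropped out and 4 of 46 remained (8.70%), against 1.82%. Without summits within 500 bp of a small RNA start, snr-4 dropped out and 4 of 46 remained (8.70%), against 1.86%. In all, 6 of the 46 genes were called in some thresholded list, against 553 of the protein-coding genes (2.77%). Both the main and the conservative list called 3 of them (snr-4, prp-19 and hrpu-1), against 320 (1.60%), and all 4 lists called 0, against 102 (0.511%).

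**Figure D2:**
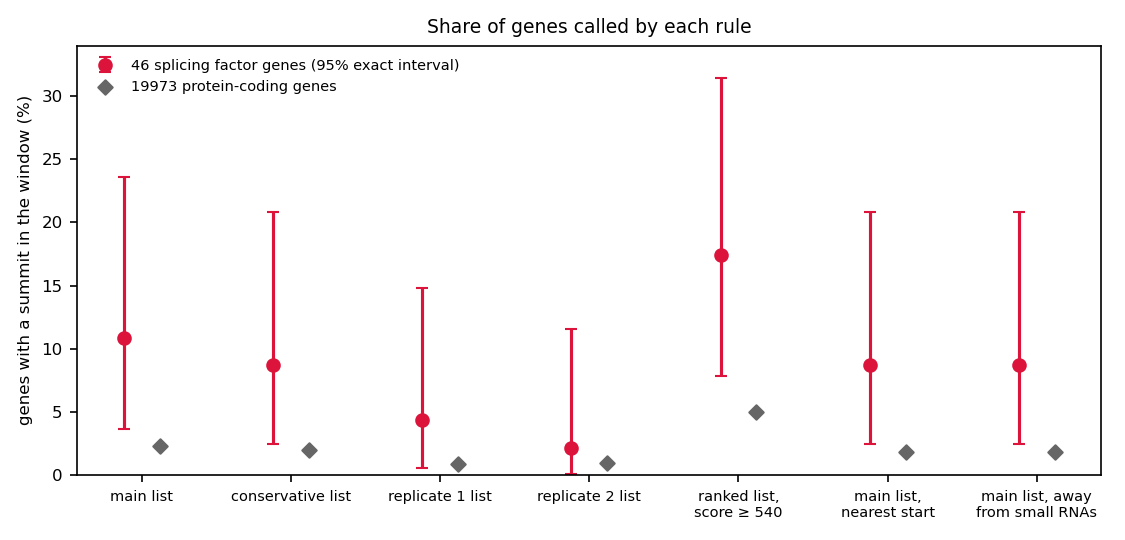
Share of the 46 splicing factor genes (circles, with exact 95% intervals) and of the 19973 protein-coding genes (diamonds) called by each of 7 rules; the y axis is in percent of genes. The splicing factor genes stand at 10.9% against 2.32% in the main list, and at 2.17% against 0.946% in the replicate 2 list, where the interval holds the diamond.

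Without a threshold, the highest signal in the promoter window had a median of 28.0 over the 46 splicing factor genes, against 18.9 over all protein-coding genes. The median splicing factor gene stood at the 77.8th percentile (quartiles 59.0 and 90.7). Of the 46, 38 (82.6%) were above the 50th percentile and 13 (28.3%) above the 90th, where 9986 and 1998 of the 19973 genes stand by construction. A ranked peak was missing in 2 of 46 windows (4.35%), against 4423 of 19973 (22.1%). Splicing factor genes had a mean of 1.70 distinct starts, against 1.47, so their windows were somewhat wider. With the start of the gene only, and no other transcript starts, the median percentile of the splicing factor genes was 78.4. The main list then had summits in the windows of 5 of 46 (10.9%), against 2.10% of all protein-coding genes. With 10 starts, hrpa-1 (hnRNP A1) had the most, and its signal of 23.1 was the lowest of its group.

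**Figure D3:**
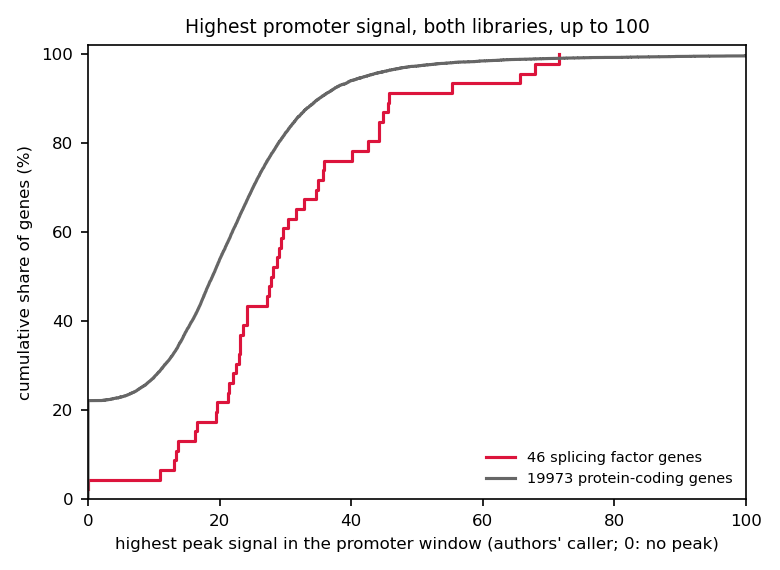
Cumulative share of genes by the highest signal in the promoter window, for the 46 splicing factor genes and the 19973 protein-coding genes; the x axis (authors' caller, both libraries) ends at 100 and the y axis is in percent. The curve of the splicing factor genes lies to the right of the other up to its end at 71.6, with medians of 28.0 for splicing factor genes and 18.9 for all.

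Each library by itself put the median splicing factor gene above the median protein-coding gene. In replicate 1 the median signals were 15.3 over the splicing factor genes and 9.88 over all genes, which is the 71.4th percentile, and in replicate 2 they were 13.5 over the splicing factor genes and 8.31 over all genes, the 72.9th percentile. A ranked peak was missing in 5 of the 46 windows in replicate 1 (10.9%), against 37.3% of all genes, and in 9 in replicate 2 (19.6%), against 41.9%. Single genes repeated less well. Over the 46 genes, the percentiles in the 2 libraries had a Spearman's rho of 0.521 and a Pearson's r of 0.460, given as a description, since the genes have the libraries and the input in common. Above the 90th percentile were 11 genes in replicate 1, 16 in replicate 2 and 7 in both. The genes lsm-5 and rsp-2 were among those with a ranked peak in 1 library only.

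**Figure D4:**
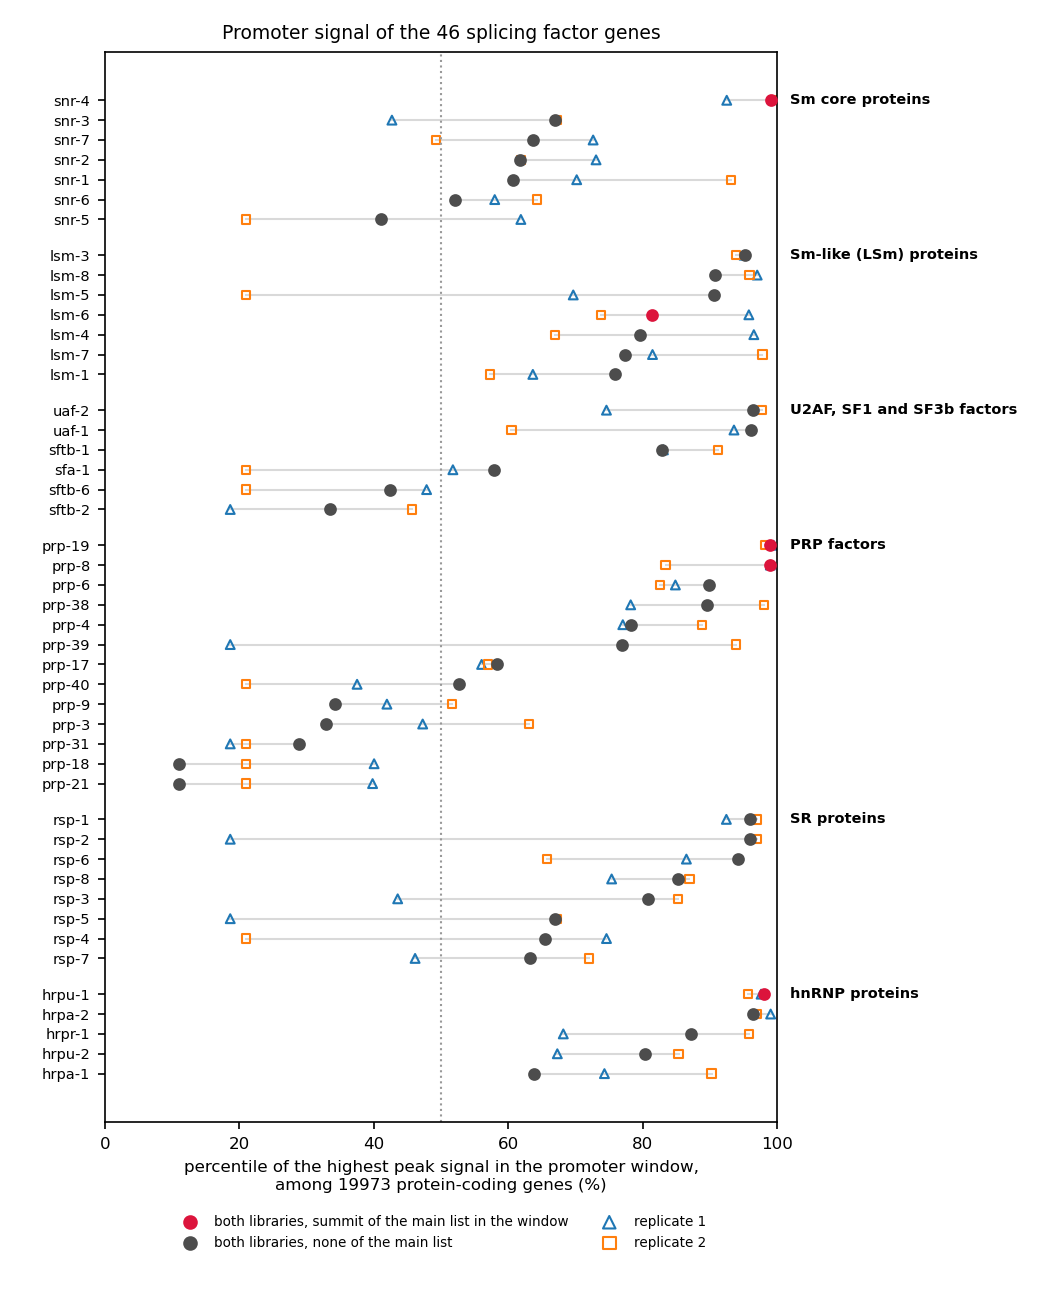
Percentile of the highest peak signal in the promoter window of each of the 46 genes among 19973 protein-coding genes (x axis, %), by group, for both libraries together (filled circles, red where a main-list summit lay in the window) and for each replicate (open symbols). Genes without a peak take the lowest shared rank. The 5 red circles are snr-4, lsm-6, prp-19, prp-8 and hrpu-1; lsm-6 stands at the 81.4th percentile, through a ranked peak of 29.6 and not its main-list peak, below genes that were not called.

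The groups overlapped in signal. Group medians of the highest signal were 32.8 for hnRNP genes, 30.5 for SR genes, 29.6 for LSm genes, 25.8 for the U2AF, SF1 and SF3b genes, 22.5 for Sm genes and 21.4 for PRP genes. The order of the medians was not that of the calls, since the SR group had none of 8 bound and the PRP group 2 of 13, while the Sm, LSm and hnRNP groups had 1 each. In the ranked list of both libraries, bound genes in the Sm and PRP groups stood well above the rest of their group. They were called from these same libraries. In replicate 2 alone, prp-8 had a signal of 16.1, below the 29.2 of prp-38, which was not bound, and prp-19 had 29.8. In the ranked list of both libraries, all 8 SR and all 7 LSm genes stood above the median of the protein-coding genes. Of these, lsm-6 alone was in a thresholded list. In the single libraries, rsp-2, rsp-3, rsp-5 and rsp-7 were below the median in replicate 1, and rsp-4 and lsm-5 in replicate 2.

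Where the highest ranked peak lay relative to the start varied widely. Its median offset was 409 bp upstream over the 44 splicing factor genes with a peak, against 283 bp upstream over 15550 protein-coding genes. It was within 100 bp of the start in 11 of the 44 (25%), against 18.7%, and over 500 bp upstream in 19 (43.2%), against 33.9%. At these distances the window often reached a neighbour. An upstream neighbour on the opposite strand within 1000 bp was present at 26 of 46 splicing factor genes (56.5%), against 21.3% of 19968 protein-coding genes. A neighbour on the same strand within 500 bp was present at 13 (28.3%), against 20.6%. On either strand, a gene that overlapped the start counted as a neighbour at 0 bp.

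Within each arrangement the comparison was as follows. With an opposite-strand neighbour within 1000 bp, 2 of 26 splicing factor genes were bound (7.69%), against 136 of 4248 protein-coding genes (3.20%). The median percentile there was 65.4 for splicing factor genes and 54.6 for all. With a same-strand neighbour within 500 bp, 2 of 13 were bound (15.4%), against 117 of 4104 (2.85%), with a median percentile of 89.6 for splicing factor genes and 55.8 for all. In any other arrangement 1 of 7 was bound (14.3%), against 210 of 11616 (1.81%), with a median percentile of 87.2 for splicing factor genes and 45.99 for all. The median percentile was thus higher for splicing factor genes in all 3 arrangements, by the least for genes with an opposite-strand neighbour within 1000 bp. Of the 6 summits in windows of splicing factor genes, 3 (50%) also lay in the window of another protein-coding gene, against 92 of 385 (23.9%).

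The promoter sequences themselves, 301 bp from 250 bp upstream to 50 bp downstream of the gene start, were searched for the same letters. TTTCAG, the consensus of 3′ splice and trans-splice acceptors, stood on either strand in 73.9% of the 46 splicing factor promoters, against 51.7% of all 19973. CGCGC was present in 26.1% against 14.1%, and GTTCGA, the core of the B box of tRNA genes, in 15.2% against 9.92%. GAGAG was present in 23.9% against 40.03%, and TATAAA in 23.9% against 38.01%. The median GC content was 32.9% against 34.2%. These shares describe the promoters and not the peaks.

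Further pathway genes outside the 10 prefixes came from a written list of 95 symbols, of which 85 matched a protein-coding gene and 10 did not. Its values are those of the list, which is not a definition of the splicing machinery. Of these 85, 5 were bound in the main list, among them mog-4, smu-1, fubl-1 and spk-1, against the 2.32% of all protein-coding genes. The strongest was mog-4, a DEAH-box helicase of splicing, with a signal of 242.4 and a summit 269 bp upstream, bound in all 4 thresholded lists. The gene smu-1, a spliceosome-associated factor, had 85.1 and a summit 57 bp upstream, and fubl-1, of the FUBP family of KH-domain proteins, had 80.2 and a summit 227 bp upstream. The gene spk-1, which encodes the kinase that phosphorylates SR proteins, had 54.9. Of the 85, 4 were bound in the conservative list, against 1.97% of all genes, 2 in that of replicate 1, against 0.886%, and 1 in that of replicate 2, against 0.946%. Their median percentile was 60.3, below the 77.8 of the genes chosen by prefix.

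The 46 genes were spread over all 6 chromosomes, with 11 on II, 11 on IV, 10 on III, 7 on I, 6 on V and 1 on X, and the 6 genes called in some list lay on 5 of them. The peak lists carry no read totals, so the depth of the libraries is unknown here and the precision rests on numbers of peaks and genes. A gene without a thresholded peak was not detected at these thresholds, which does not show that it lacked Y75B8A.6.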

How the data were processed

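The files used were 8 peak lists deposited by the authors, a ranked and a thresholded list for each of the 2 libraries and for 2 analyses of both libraries together. Per the labels, chromatin was sonicated to 200 to 800 bp and the build was ce11; the deposited descriptions name alignments and 1 input file, common to both libraries, as the sources of every list. Which aligner and peak caller were used is not given in the sources used here. Signal per peak is as deposited, on an unstated scale. The deposited score follows the global IDR, and the authors' ranked lists also hold its −log10; a score of 540 was the looser threshold. What the peaks paired in the ranked list behind the main list were is not stated.

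Genes and small RNA starts came from Ensembl release 115, with sequences and names of snRNA genes from RefSeq, both of WBcel235. Coordinates are 1-based, and places of summits are positions in this annotation. A percentile ranks the highest signal in the window among 19973 genes. No test was run, because there was 1 group. Shares have exact Clopper-Pearson 95% intervals. The genes named were those bound in any thresholded list or under the looser threshold, the 10 of highest and 3 of lowest ranked signal, the highest of each group without one, bound pathway genes, and small RNA genes within 500 bp of a named summit; further genes are named to describe their group, chosen after their values were seen. One bound pathway gene is not reported here by name. The members, groups, pathway list and motifs were chosen with earlier results of these data known. The alternatives were other lists, thresholds, windows, starts and assignments of summits. The assignment of summits to windows was tested on simulated summits. Scripts ran under Python 3.11.15 with pandas 2.3.3 and numpy 2.4.6, intervals came from scipy 1.17.1, and plots from matplotlib 3.10.9.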

Additional observations from a re-analysis of the deposited data

How the results depend on the processing

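The number of bound splicing factor genes moved with the threshold and the window. From 5 of 46, beside 463 of all protein-coding genes, it went to 8, beside 997, with ranked peaks of a score of at least 540, to 3, beside 267, with main-list peaks at or above the median signal, and to 3, beside 296, with a window that reached 500 bp upstream and 100 bp downstream. With main-list peaks that overlap a conservative-list peak it was 3, beside 315. In the list without replicate 1 it was 1 (snr-4), beside 189 of all protein-coding genes. In the list without replicate 2 it was 2 (prp-8 and prp-19), beside 177. Peaks with a signal of at least 10, and starts of noncoding transcripts counted too, were alternatives chosen after seeing the data, and gave 4, beside 462, and 5, beside 466. Any overlap of peak and window gave 6, beside 499, and a window reaching 2000 bp upstream and 500 bp downstream gave 6, beside 681, with hrpr-1 added in both. In 14 of 14 alternatives the share of splicing factor genes was above that of all protein-coding genes, and with as few as 1 bound gene this rests on that gene. Of 15 settings, snr-4 was bound in 13, prp-8 and prp-19 in 12 each, hrpu-1 in 11, lsm-6 in 9 and hrpa-2 in 2. These tallies follow largely from the main list, which most settings filter or widen. A wider window, any overlap and added noncoding starts could not lose a bound gene. No filter of the main list could call hrpa-2, whose window held none of its summits.

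The median percentile of 77.8 became 71.4 to 72.9 in the lists without replicate 1 or without replicate 2, 72.4 with the narrower window, 79.3 with the wider one, and 72.9 with genes that had no ranked peak left out. The cause was not tested. No paired analysis was possible because the 2 libraries are replicates of 1 group. Depth is unknown, so a peak missing from 1 library was not detected there, which does not show that it was absent.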
